A study of Mus musculus with 4 samples.

Results

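Genes of mismatch repair and of the polymerase pathways used in somatic hypermutation were followed in the RNA of cultured mouse B cells: Msh3, Msh6, Pms2, Exo1, Polh, Rev1, Rev3l and Rad18. They were chosen by name, and each of the 8 members had 1 row among the 13792 genes that both expression tables list. The 2 RNA groups were RVKM-Ascl2, C57BL/6 naive B cells infected with a retrovirus that carries Ascl2, and RVKM-Empty, the same cells infected with the virus without an insert. In both groups anti-IgM and anti-CD40 were added to the culture, which stimulate the B cell receptor and the receptor for T cell help. Ascl2 encodes a transcription factor of the basic helix-loop-helix class. The labels do not give the age or number of the mice, the promoter of the virus, the time in culture or the share of cells that took up the virus. Each group had 1 library, so no value has a replicate error, no test between the groups was possible, and every difference below describes these 2 libraries. The series' chromatin samples, from germinal centre B cells, were not analysed here.

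During somatic hypermutation, activation-induced deaminase turns cytosines of immunoglobulin genes into uracils, and the resulting U:G mismatches are read by repair pathways that then copy DNA inaccurately. Msh6 encodes the mismatch-recognising subunit of MutSα, which binds single base mismatches, and Msh3 that of MutSβ, which prefers larger loops. Pms2 encodes the endonuclease subunit of MutLα, and Exo1 the exonuclease that removes the strand around the mismatch. Polh encodes polymerase eta, a translesion enzyme that fills such gaps with errors mainly at A:T pairs. Rev1 encodes a deoxycytidyl transferase that also gathers other translesion polymerases, Rev3l encodes the catalytic subunit of polymerase zeta, and Rad18 encodes the ubiquitin ligase that marks PCNA to recruit them.

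The labels of the libraries were checked first. Ascl2 itself was 29.4 in the RVKM-Ascl2 library and 0.0809 in the RVKM-Empty library, in the deposited abundance units, and the direction goes with the labels. All 9 B cell marker genes looked for had a row, and their summed abundance was 6507 with RVKM-Ascl2 and 8293 with RVKM-Empty. Cd74 made up 4168 and 5742 of these sums. Of the 9 genes, 4 were higher with RVKM-Ascl2 and 5 were lower. Of 10 myeloid markers, 6 had a row, with sums of 57.3 and 51.6 in the same order of libraries. These sums join genes that differed in opposite directions, as 5 were higher with RVKM-Ascl2 and 1 was lower. The lower one, Cd68, was 10.8 with RVKM-Ascl2 and 16.2 with RVKM-Empty. Among the higher ones, Fcer1g was 9.83 and 5.71 in that order, and Lyz2 21.4 and 16.0. Of 9 T cell markers, 3 had a row: Lck, Cd2 and Thy1, with sums of 383 for RVKM-Ascl2 and 433 for RVKM-Empty, of which Thy1 made up 346 and 395. The CD3 genes had no row. The part of these cells, or of Thy1 from another source, in the results below was not tested. In bulk RNA, fewer cells that express a gene and less RNA per cell cannot be told apart.

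None of the 8 members reached a 2-fold difference between the libraries, and 7 of them were slightly higher with Ascl2. The folds, without a pseudocount, ran from 0.898 for Rev1 to 1.19 for Rev3l. The summed abundance of the 8 was 138 in the RVKM-Ascl2 library and 132 in the RVKM-Empty library, a fold of 1.05. Log2 ratios are of the RVKM-Ascl2 value plus 1 over the RVKM-Empty value plus 1. Across the 12283 genes that reached a value of 1 in one library or both, 2.25% were past 2-fold in either direction, so a count of 0 of 8 is near that background and is not a result about the members. Likewise no member was past 1.5-fold, where 9.32% of all genes were.

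**Figure D1:**
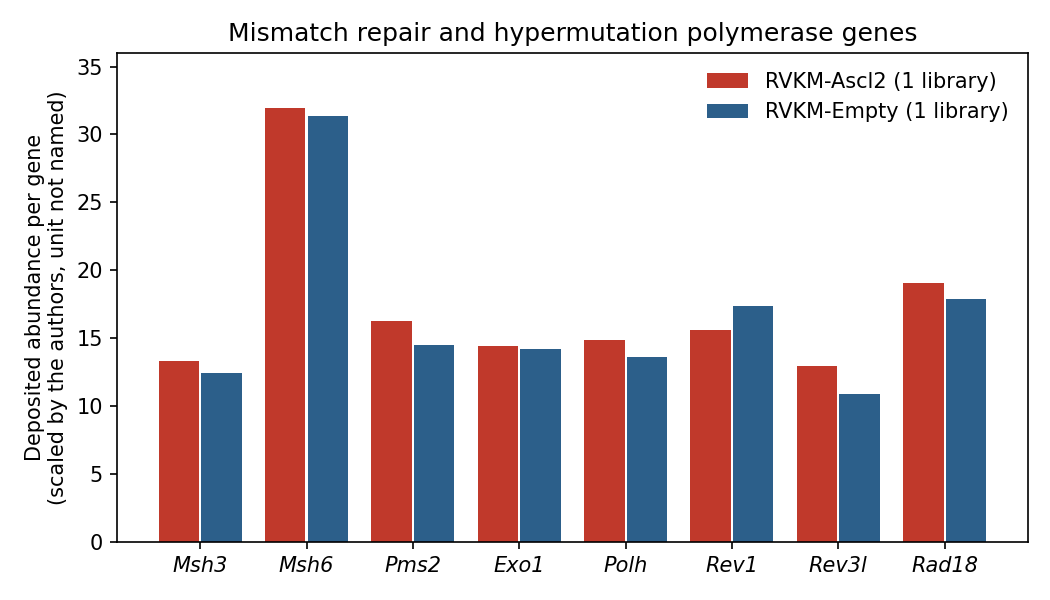
Deposited abundance of each member gene, with 1 bar for the RVKM-Ascl2 library (red) and 1 for the RVKM-Empty library (blue); there is 1 library per group, so no error bars are drawn. Msh6 stands highest in both libraries, at 31.9 and 31.4, and Rev1 is the only gene whose RVKM-Ascl2 bar is the lower of its pair.

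Among the mismatch recognition genes, Msh6 (ENSMUSG00000005370, chromosome 17, 87975050 to 87990892) was 31.9 in the RVKM-Ascl2 library and 31.4 in the RVKM-Empty library, a log2 ratio of 0.02. Msh3 (ENSMUSG00000014850, chromosome 13, 92211878 to 92355004) was 13.3 with RVKM-Ascl2 and 12.4 with RVKM-Empty, a log2 ratio of 0.09. Coordinates throughout are those of RefSeq genes on GRCm38, the assembly also called mm10. The RNA values of the 2 recognition genes thus kept nearly the same proportion. Msh6 was 2.40 times Msh3 in the RVKM-Ascl2 library and 2.52 times in the RVKM-Empty library. A proportion within a library does not depend on how that library was scaled, but reading it as a difference in transcript level assumes that the values are scaled for gene length, which the sources used here do not state.

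The downstream repair genes were about as close. Exo1 (ENSMUSG00000039748, chromosome 1, 175880768 to 175911396) was 14.5 with RVKM-Ascl2 and 14.2 with RVKM-Empty. Its log2 ratio of 0.02 was the nearest to 0 among the members, and 94.1% of all genes lay at least as far from 0. Pms2 (ENSMUSG00000079109, chromosome 5, 143909901 to 143972745) was 16.3 with RVKM-Ascl2 and 14.5 with RVKM-Empty, a log2 ratio of 0.16, and 60.6% of all genes lay at least as far from 0. The 4 mismatch repair members therefore sat in the bulk of the distribution, with a difference of less than 2 units each.

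The polymerase genes spread somewhat more, and Rev1 and Rev3l lay at opposite ends of the members. Rev3l (ENSMUSG00000019841, chromosome 10, 39731561 to 39875211) was 12.9 in the RVKM-Ascl2 library and 10.9 in the RVKM-Empty library. Its log2 ratio of 0.23 was the largest of the 8, yet 45.6% of all genes lay at least as far from 0. Rev1 (ENSMUSG00000026082, chromosome 1, 38052786 to 38129921) was 15.6 with RVKM-Ascl2 and 17.4 with RVKM-Empty, a log2 ratio of -0.15. It was the only member with a lower value in the RVKM-Ascl2 library. Rev3l over Rev1 was 0.829 in the RVKM-Ascl2 library and 0.627 in the RVKM-Empty library, so that proportion was 1.32 times as high with Ascl2. Whether so small a shift exceeds the variation between cultures cannot be told with 1 library a group.

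Polh (ENSMUSG00000023953, chromosome 17, 46171355 to 46202641), the gene of the main error-prone gap filler at A:T pairs, was 14.9 with RVKM-Ascl2 and 13.6 with RVKM-Empty. Its log2 ratio was 0.12, and 68.8% of all genes lay at least as far from 0. Rad18 (ENSMUSG00000030254, chromosome 6, 112619851 to 112696691) was 19.1 with RVKM-Ascl2 and 17.9 with RVKM-Empty, a log2 ratio of 0.09. Polh over Rad18 was 0.781 in the RVKM-Ascl2 library and 0.762 in the RVKM-Empty library. The RNA values of the polymerase gene and of the gene of the ligase thus differed in the same direction and by about the same proportion.

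All 8 members were well within the measured range in both libraries and within a narrow band. They ran from 12.9 to 31.9 in the RVKM-Ascl2 library and from 10.9 to 31.4 in the RVKM-Empty library. Rev3l, the lowest, stood above 55.6% of all listed genes with RVKM-Ascl2 and above 51.5% with RVKM-Empty, and Msh6, the highest, above 77.9% and 77.1%. Msh6 and Rad18 held the highest places and Msh3 and Rev3l the lowest in both libraries. Pms2 and Rev1 changed places with each other, as did Polh and Exo1. The members at places 3 to 6 lay between 14.5 and 16.3 with RVKM-Ascl2 and between 13.6 and 17.4 with RVKM-Empty, and no spread between samples is available to separate neighbours in this order.

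The median log2 ratio of the 8 members was 0.09, against -0.01 over all genes past the filter. It was 0.045 with the trend over genomic span subtracted, against 0.00022 over all genes. With both libraries set to equal sums after leaving out immunoglobulin genes, Jchain and Pcdh15, it was 0.18, against 0.069 over all genes. A log2 ratio above 0 was found for 7 of the 8, against 48.4% of all genes. The middle 50% of all genes lay between -0.22 and 0.19, and 7 of the 8 members fell inside it, Rev3l being the exception. With a limit of 1.2-fold, chosen after the values were seen, 0 of 8 members were past it, against 39.4% of all genes and 30.6% of the 3631 genes whose values lay between 10 and 35 in both libraries. This count depends on the scaling: with those equal sums, Rev3l reached a log2 ratio of 0.32 and passed 1.2-fold.

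**Figure D2:**
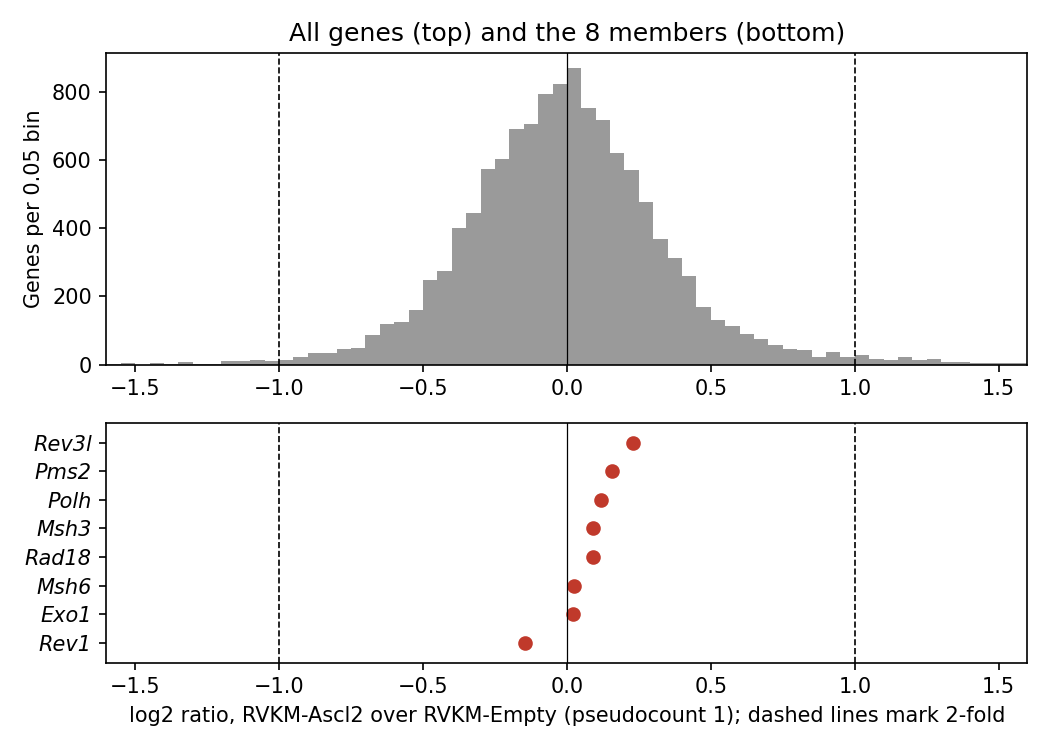
Top, the number of genes per bin of the log2 ratio of RVKM-Ascl2 over RVKM-Empty, for genes that reached 1 in one library or both, shown from -1.6 to 1.6; bottom, the 8 members on the same axis, with dashed lines at 2-fold. The members run from -0.15 for Rev1 to 0.23 for Rev3l, inside the main peak of all genes.

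The other genes of these pathways came from lists chosen with earlier results of these data known. Past 2-fold were 2.25% of all genes, and past 1.5-fold 9.32%. Of 22 other mismatch repair and resynthesis genes with a row, none was past 2-fold, and 1 was past 1.5-fold. That gene was Pold2, an accessory subunit of the replicative polymerase delta, at 33.4 with RVKM-Ascl2 and 51.7 with RVKM-Empty (log2 ratio -0.62). Pold1, its catalytic subunit, was 82.6 with RVKM-Ascl2 and 115 with RVKM-Empty (-0.47). Rpa1 and Rpa3, subunits of the single-strand binding protein RPA, had log2 ratios of -0.26 and -0.22, and Hmgb1, a DNA-bending chromatin protein that assists mismatch repair in vitro, one of -0.26. Mlh3, another MutL homologue, was 5.86 with RVKM-Ascl2 and 4.25 with RVKM-Empty (0.39). The list's median was -0.09, with 10 genes above 0 and 12 below. That median lay above 0 in 2 alternatives. It was 0.020 with the trend over genomic span subtracted and 0.0042 with equal sums without immunoglobulin genes, Jchain and Pcdh15.

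Of 23 other translesion and gap-filling genes, none was past 1.5-fold on the log2 scale with a pseudocount of 1, where 9.32% of all genes were. The list's median log2 ratio was 0.08. Without a pseudocount the fold of Poln, a gene of low abundance, was 1.84. The largest positive ratios belonged to Poln, encoding polymerase nu, at 1.61 with RVKM-Ascl2 and 0.878 with RVKM-Empty (0.48), to Hltf, a ubiquitin ligase that extends the chains on PCNA, at 23.5 and 16.8 in the same order (0.46), and to Poli, encoding polymerase iota, at 14.8 and 11.05 (0.39). Low values such as those of Poln are the least precise. The direct partners of 2 members had lower values with Ascl2, although those members themselves were higher. Mad2l2, the accessory subunit of polymerase zeta that binds the Rev3l product, was 14.8 with RVKM-Ascl2 and 20.95 with RVKM-Empty (-0.47). Ube2a, which encodes a ubiquitin-conjugating partner of the Rad18 ligase, was 45.0 with RVKM-Ascl2 and 62.7 with RVKM-Empty (-0.47). Its close paralog Ube2b was 97.8 and 127 in that order (-0.37). Reads of such paralogs may have been split between them in counting.

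Within each library, the RNA value of Rev3l over that of Mad2l2 was 0.872 with RVKM-Ascl2 and 0.520 with RVKM-Empty. That ratio was 1.68 times as high with Ascl2, and protein was not measured. Rad18 was 0.424 of Ube2a with RVKM-Ascl2 and 0.285 with RVKM-Empty, 1.49 times as high. Against Ube2b, Rad18 was 0.195 with RVKM-Ascl2 and 0.141 with RVKM-Empty, 1.38 times as high. These pairs were chosen after their values were seen.

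**Figure D3:**
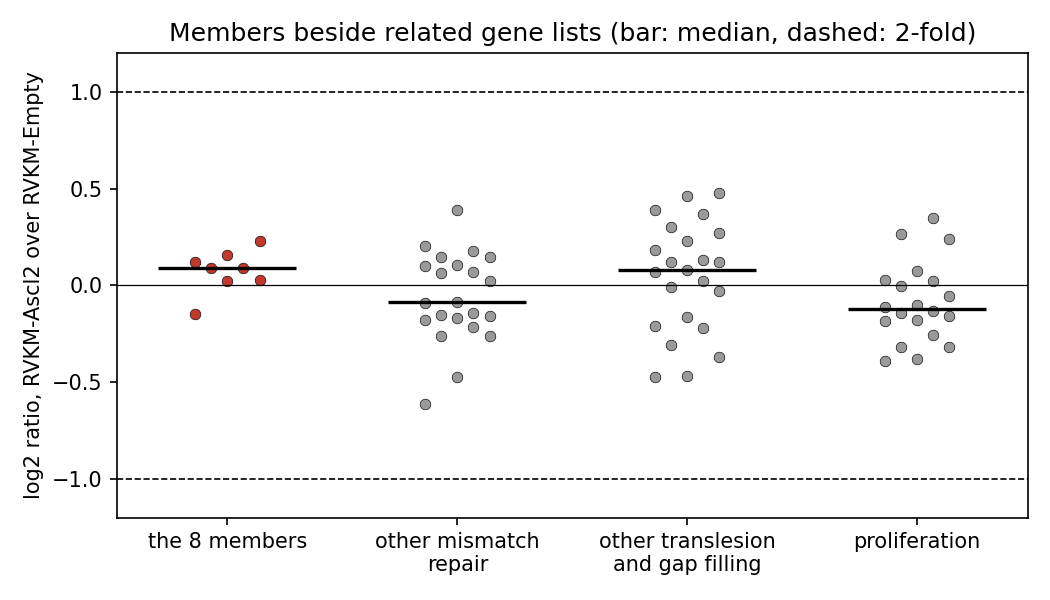
Log2 ratio of RVKM-Ascl2 over RVKM-Empty for each gene of 4 lists that reached 1 in one library or both; points are genes, thick bars list medians, and dashed lines mark 2-fold. The medians are 0.09 for the 8 members, -0.09 for other mismatch repair genes, 0.08 for other translesion genes and -0.12 for proliferation genes, and no gene shown is past 2-fold.

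Many repair genes are transcribed with the cell cycle, so proliferation genes were set beside them. None of 20 was past 1.5-fold, where 9.32% of all genes were. Above 0 were 6 and below 0 were 14, against 48.4% of all genes above 0. The median log2 ratio was -0.12. That median was -0.062 with the span trend subtracted and -0.033 with the equal sums. Mcm5 and Mcm3, subunits of the replicative helicase, were 100.4 and 117 with RVKM-Ascl2 against 132 and 146 with RVKM-Empty. Ccne1, encoding cyclin E1, was 12.9 with RVKM-Ascl2 and 17.1 with RVKM-Empty, and Cdt1, a replication licensing factor, was 24.8 and 31.2 in that order. In the other direction, the proliferation marker Mki67 was 126 with RVKM-Ascl2 and 99.2 with RVKM-Empty, and Bub1, a mitotic checkpoint kinase, was 47.1 and 38.9. The members' median was above 0 and that of the proliferation list below it, and the part of the cell cycle in either was not tested.

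The log2 ratio moved with the genomic span of genes in these libraries. Over 11579 genes with a known span, the Spearman rho was 0.19 across genes, which are not independent replicates and share both libraries. Over the 53 members and other pathway genes it was 0.57. The Pearson r with the log of span was 0.07 over all genes and 0.54 over those 53. Of the 26 with the shorter spans, 1742 to 30497 bases, 9 were above 0 and 17 below, with a median of -0.15. Of the 27 with the longer spans, 30629 to 162348 bases, 22 were above 0 and 5 below, with a median of 0.12. All members except Msh6, at 15843 bases, belong to that longer group, and Mad2l2, Ube2a and Pold2 to the shorter one, at 15547, 9928 and 6077 bases. After subtraction of the running median over genes of neighbouring span, Rev3l stood at 0.16, Rev1 at -0.23 and the other members between 0.0042 and 0.094. What lies behind the relation with span was not tested.

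**Figure D4:**
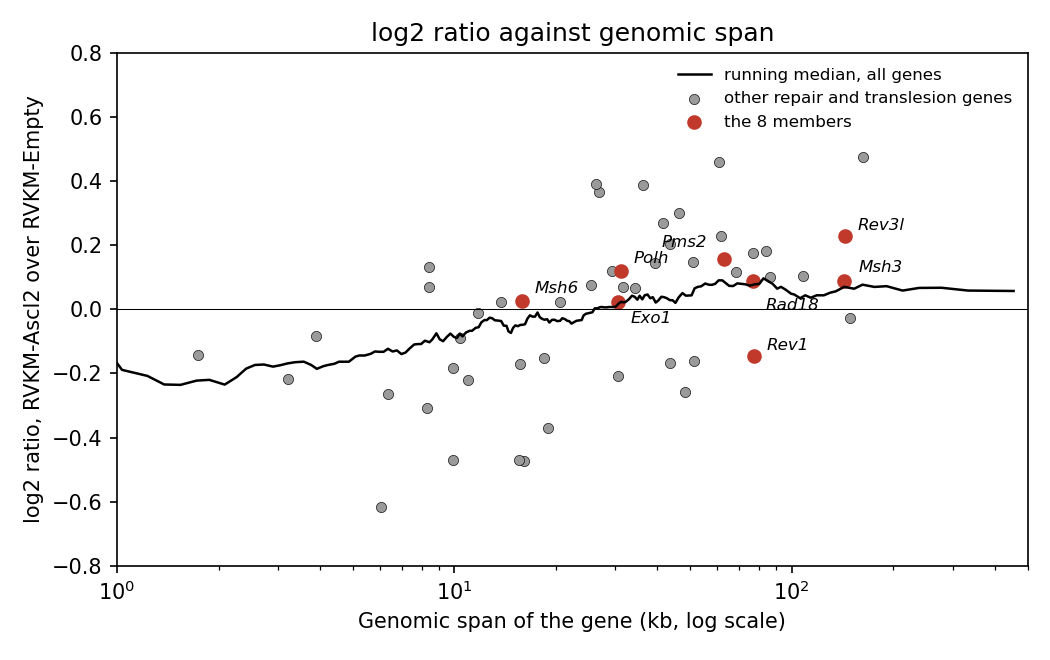
Log2 ratio of RVKM-Ascl2 over RVKM-Empty against genomic span in kilobases on a log axis, for the 8 members (red, named) and the other repair and translesion genes (grey), with the running median of all genes as a line, shown from 1 kb upward. The line rises from -0.24 at 1542 bases to 0.09 at 60726 bases and is 0.057 at 454786 bases. Below 1 kb, not drawn, the running median was 0.60 at 61 bases. Rev3l lies above the line and Rev1 below it by 0.23.

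Promoter windows were looked at because Ascl2 belongs to a class of factors that bind E-boxes, sites of the form CANNTG. RefSeq windows on GRCm38.p6, each from 250 bases before to 50 after the start of a transcript, matched 6 of the 8 members (7 windows, with 2 for Rad18); Exo1 and Rev3l were not matched. A window's transcript start need not be the outer end of the gene coordinates given above. It lay 255 bases inside that end for Rev1 and 100 bases inside for Pms2, 21 and 43 bases inside for the 2 windows of Rad18, 1 base inside for Msh3, and at that end for Polh and Msh6. CAGCTG, the E-box form that Ascl proteins favour, was in 0 of the 7 windows on either strand, against 16.3% of all 32851 windows. CACCTG, read on both strands, was in 1 window of Rad18, against 20.2% of all. Any CANNTG, which includes those forms, was in 4 of the 7 windows, against 72.3% of all. The absence of these letters from so few windows says nothing of binding by Ascl2. Stretches of 30 bases around the E-boxes of Rev1 and Pms2 follow, with the E-box in capitals, to show which forms these 2 members carry. They lie at chr1:38129854-38129883 (minus strand) and chr5:143909940-143909969 (plus strand), and each is printed 5′ to 3′ on the strand of its gene.
Rev1: cagccgcacggtCACGTGcagccgaggcgc
Pms2: gaaggggcggatCATATGtcaaaagcaacc

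The E-boxes in the windows of Rev1, Pms2 and Msh3 differ in their central bases. The CACGTG of Rev1 is the form known for Myc and Usf proteins and was in 7.15% of all windows. It begins 205 bases before the transcript start of its window, which is 50 bases inside the outer gene end. The CATATG of Pms2, a form in 3.91% of all windows, begins 49 bases before its transcript start and 51 bases inside the outer gene end. The CACTTG of Msh3, counted on both strands and in 13.6% of all windows, begins 169 bases before its transcript start and outside the gene. Of these genes, Rev1 had the lower value with Ascl2 (log2 ratio -0.15) and Pms2 and Msh3 the higher (0.16 and 0.09).

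Rev1, Msh6 and Rev3l overlap other genes that have a row, and since the strand setting of the counting is not given, reads in the shared bases cannot be assigned with certainty. Rev1 shares 2794 bases with Eif5b, a translation initiation factor gene, which was 31.5 with RVKM-Ascl2 and 28.2 with RVKM-Empty. Rev1 thus had a lower value with Ascl2 beside an overlapping gene with a higher one. Msh6 shares 34 bases with Fbxo11, a ubiquitin ligase subunit gene at 29.1 with RVKM-Ascl2 and 24.7 with RVKM-Empty. Rev3l shares 447 bases with the long noncoding RNA gene E130307A14Rik, which was 9.99 with RVKM-Ascl2 and 8.93 with RVKM-Empty.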

How the data were processed

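RNA was measured in 2 libraries of cultured B cells, RVKM-Ascl2 and RVKM-Empty, grouped by sample title. The authors deposited 1 signal value for each gene, which behaves as an abundance adjusted for depth. The unit's name, the quantifier, the gene models and the use of strand were not given in the sources used here. Per the submitters' processing notes, the genome build was mm10, and Trim Galore, Bowtie2, Picard and MACS2 were among the tools, without versions or roles. Summed abundance was 763932 for RVKM-Ascl2 and 750692 for RVKM-Empty, no gene was at 0, and absolute depth is unknown. Among 1842 genes below 1.2 in both libraries, the ratio of RVKM-Ascl2 over RVKM-Empty clustered between 1.14 and 1.15 (31 genes, against a median of 11 in nearby intervals), read here as a slightly shallower RVKM-Ascl2 library.

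Values were read with pandas 2.3.3. The log2 ratio used a pseudocount of 1, which understates differences of low genes. Genes reaching 1 in one library or both were kept, and 2-fold was the limit. No p-value was computed, as each group had 1 library. Spans and coordinates came from RefSeq on GRCm38, matched through Ensembl identifiers (13752 of 13792 had a symbol and 12763 a span). The steps were tested on simulated data with an assumed depth and no variation between cultures. The differences planted there were far larger than those of the members, so that test does not bear on differences as small as theirs.

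The members and lists were chosen with earlier results of these data known. Named were the 8 members, Ascl2 and, from each list, any gene past 2-fold and up to 6 with the largest absolute ratio; marker and overlapping genes are named as checks, and of the markers with a row only those the text needs. Alternatives were pseudocounts of 0.1 and 5, a filter of 5 or none, 3 rescalings of the RVKM-Ascl2 values, subtraction of the span trend (a running median over genes of neighbouring span), limits of 1.5-fold and 3-fold, and the mean. The 1.2-fold limit, the range of 10 to 35, the partner pairs with Mad2l2, Ube2a and Ube2b and the grouping by span were added after the data were seen. Genes that overlap Msh3 are not reported here.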

Additional observations from a re-analysis of the deposited data

How the results depend on the processing

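The 48 alternative values of single members (8 genes under 6 settings) all lay within 0.1 of the reported log2 ratio, and in each setting 7 members were above 0 and Rev1 below; no member was past 1.5-fold in any. That 0.1 is a chosen tolerance, since no replicate spread exists. The 3 rescalings shift a log2 ratio by at most 0.014, 0.024 and 0.092, so under them the outcome was fixed in advance. The tolerance is also larger than the reported ratios of Msh3, Rad18, Msh6 and Exo1. Staying within it therefore says little about how stable these values are. The count of all genes past 2-fold, 276 as reported, was 590 with a pseudocount of 0.1, 123 with a pseudocount of 5, 1145 at 1.5-fold, 56 at 3-fold and 4840 at 1.2-fold; these follow from the construction of the limits and of the pseudocount. The median of the other mismatch repair genes was -0.09 as reported. It was 0.020 with the span trend subtracted and 0.0042 with equal sums without immunoglobulin genes, Jchain and Pcdh15. Under the same settings that of the members, 0.09 as reported, was 0.045 and 0.18. That of other translesion genes, 0.08 as reported, was 0.057 and 0.17. The cause was not tested. In all, 52 of 58 summary values stayed within the tolerance, or within 1.5 times for counts. Many of these could hardly move. No member ratio was past 0.32 in any setting, so the members' count past 2-fold stayed at 0. The filters left out no member, as each was at 10.9 or more in both libraries. The rescalings shift a median by less than the tolerance. The share that stayed therefore says little about how stable the summaries are. No paired analysis was possible because each group had 1 RNA library. No depth is known, so no counting interval can be given, and differences of the size seen here cannot be set against an error.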
